A study of Mus musculus with 9 samples.

Results

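The transcripts described here are 216 mouse liver genes that still carried a provisional symbol in the deposited count table, either Gm followed by a number, for a model predicted from the genome, or a symbol ending in Rik, for a transcript first seen as a RIKEN full-length clone. A gene was included when its mean raw count was at least 200 over the 3 libraries of at least 1 group, so the members were chosen by the raw group means themselves. The table held 55401 genes, 30619 of them with a Gm or Rik symbol, and the 216 members comprised 92 Gm and 124 Rik genes. All 216 passed the filter on low counts, among 15717 genes tested and 2018 tested Gm and Rik genes. The mean over all 9 libraries reached 200 in 161 members, while the other 55 entered only through the group or groups in which they were high and so had to differ. Counts over those 55 are descriptions and carry no support. The members of the 55 that are named with a fold change are 1110038B12Rik, 1700049E15Rik, 2810006K23Rik, 4732463B04Rik, A930033H14Rik, B430119L08Rik, Gm13387, Gm15690, Gm15883, Gm16573, Gm29920, Gm35570, Gm43314, Gm43611, Gm44992, Gm45909, Gm47815, Gm47935, Gm609 and Gm8995, and their adjusted p-values are descriptions in every comparison, since the values tested chose them.

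RNA was sequenced from whole liver of 9 female mice. The 3 healthy livers received no oncogene. The 3 untreated HCC livers came from mice given plasmids for myristoylated AKT (EF1α promoter) and Nras-v12 (Caggs promoter) with the sleeping beauty transposase by hydrodynamic tail vein injection at 6 weeks of age, a procedure that transfects part of the hepatocytes, followed 1 week later by a blank adeno-associated virus of serotype 8. The 3 miR-22-treated HCC livers came from mice given the same oncogenes and then AAV8-miR-22, in which the CMV promoter drives the miRNA. Both HCC groups were collected 5 weeks after the oncogenes, 4 weeks on virus, and no collection age for the healthy mice is given in the sources used here. The strain is C57BL/6 in one label field and FVB/N in the growth protocol and the methods, and the virus dose differs between labels and methods. Oncogene plasmids were carried by both HCC groups and not by the healthy livers, and the virus likewise, so tumor formation, plasmid and virus cannot be told apart in a comparison with healthy liver.

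A provisional symbol says nothing of function. Some of these loci encode proteins whose role was worked out after they were catalogued, some are long non-coding RNAs, which are spliced and polyadenylated but not translated, and some are pseudogenes, copies of a coding gene that arose by duplication or by reverse transcription of its mRNA. Processed pseudogenes are often almost identical to their parent, so short reads of the parent can be assigned to them. Non-coding loci in liver frequently lie beside or antisense to highly transcribed hepatocyte genes. In a library that does not keep strand, reads from such a locus and from an overlapping partner cannot be told apart.

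The members on which the comparisons turn most are non-coding, and the start windows of 4 of them are shown, since neither the symbol nor a protein identifies such a locus. Each window runs from 250 bases before to 50 bases after the start of the canonical transcript, was read from GRCm39 and is printed 5′ to 3′ on the strand of the gene. Capitals mark a match to a searched motif. The first pair rose from almost no reads in healthy liver, and the second pair fell the furthest among the non-coding members. They are 1700049E15Rik (chr6:147591489-147591788, + strand, with a TATAAA box), Gm47815 (chr10:42910739-42911038, + strand, with a match to TGANTCA, the AP-1 motif), Gm44992 (chr7:39560345-39560644, - strand, also with TGANTCA) and Gm45909 (chr8:93917937-93918236, - strand, with a CCAAT box on the opposite strand).
1700049E15Rik: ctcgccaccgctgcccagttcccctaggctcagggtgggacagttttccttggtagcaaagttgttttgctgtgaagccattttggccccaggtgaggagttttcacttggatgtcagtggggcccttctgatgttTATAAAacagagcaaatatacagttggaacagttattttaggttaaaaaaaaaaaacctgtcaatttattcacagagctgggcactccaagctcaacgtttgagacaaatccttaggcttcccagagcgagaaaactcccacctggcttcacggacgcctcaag
Gm47815: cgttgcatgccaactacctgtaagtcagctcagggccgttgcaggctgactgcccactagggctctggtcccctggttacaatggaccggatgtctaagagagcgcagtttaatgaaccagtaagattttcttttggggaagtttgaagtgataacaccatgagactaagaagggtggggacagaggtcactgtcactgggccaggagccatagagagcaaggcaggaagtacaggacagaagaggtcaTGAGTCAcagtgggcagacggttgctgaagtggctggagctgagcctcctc
Gm44992: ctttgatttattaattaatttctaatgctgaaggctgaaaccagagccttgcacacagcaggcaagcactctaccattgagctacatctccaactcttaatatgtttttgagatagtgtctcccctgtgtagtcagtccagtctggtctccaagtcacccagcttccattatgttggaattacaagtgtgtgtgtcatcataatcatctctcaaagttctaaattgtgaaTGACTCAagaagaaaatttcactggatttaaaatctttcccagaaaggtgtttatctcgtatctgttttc
Gm45909: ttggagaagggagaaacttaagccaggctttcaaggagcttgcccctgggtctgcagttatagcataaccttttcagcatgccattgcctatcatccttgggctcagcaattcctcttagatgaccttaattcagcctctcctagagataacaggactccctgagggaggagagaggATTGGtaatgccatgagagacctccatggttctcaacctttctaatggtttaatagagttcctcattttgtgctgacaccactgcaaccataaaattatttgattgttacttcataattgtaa
The mature miRNA delivered to the treated group is given from RefSeq, with its seed (bases 2 to 8) in capitals.
mmu-miR-22-3p: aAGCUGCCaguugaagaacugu

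In the GENCODE vM39 annotation of GRCm39, 212 of the 216 members had an entry. Of these, 106 were protein-coding, 77 non-coding and 29 pseudogenes, and 51 carried another name, 49 of them neither Gm nor Rik. Examples are 1300017J02Rik, now Inhca, a transferrin-like inhibitor of carbonic anhydrase, 2900097C17Rik, now Norad, a non-coding RNA that binds Pumilio proteins, and 1810026B05Rik, now Chaserr, a non-coding RNA upstream of Chd2. The 4 members with no entry were Gm23935, Gm24270, 4932422M17Rik and 1 of the 2 identifiers listed as C730027H18Rik. Together the members took 0.743% to 0.903% of all counts in a library, with protein-coding members at 0.459% to 0.541% and non-coding members at 0.117% to 0.198%. The non-coding share was 0.187% to 0.198% for healthy livers, 0.117% to 0.131% for untreated HCC and 0.153% to 0.167% under miR-22, so the 3 groups did not overlap. This separation is a description, since only 46 of the 77 non-coding members had a 9-library mean of 200 or more. The others entered only through groups in which they were high.

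Library totals ran from 16664659 to 23908392 counts and TMM factors from 0.865 to 1.22. Several marker lists moved with the groups. The 8 hepatocyte markers summed to 127649 to 132559 CPM (counts scaled to a common library total) in the healthy group, 49720 to 62633 CPM in the untreated HCC group and 75656 to 94294 CPM in the treated group, and 8 of 8 were lower in untreated HCC. The 6 ductal markers summed to 29.5 to 42 CPM, 3339 to 6265 CPM and 1566 to 2708 CPM in the same order. Stellate and myofibroblast markers summed to 252 to 285 CPM, 726 to 838 CPM and 593 to 685 CPM. From healthy to untreated HCC, neutrophil (1.7 to 4.46, then 16.2 to 21.4 CPM) and erythroid sums (113 to 170, then 233 to 325 CPM) rose. Endothelial sums fell (341 to 424, then 219 to 275 CPM), and macrophage and lymphocyte sums overlapped. Pancreatic acinar markers reached 321 CPM in replicate 2 of the miR-22-treated group against at most 11.4 in any untreated HCC library, and at most 0.817 in healthy liver. The hepatocyte and ductal sums moved in every comparison below, while the acinar sums of treated livers, 0.759 to 321 CPM, overlapped those of both other groups. The part of any list in the members' changes was not tested. In bulk liver fewer hepatocytes and less RNA per hepatocyte cannot be told apart.

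To ask how these transcripts differ between tumor-bearing and healthy liver, untreated HCC was compared with healthy livers. More members were lower than higher. A gene was called at an adjusted p under 0.05 (Benjamini-Hochberg over all tested genes, edgeR quasi-likelihood test) and a fold over 1.5. Of 216 members, 23 were called higher and 99 lower, with a median log2 fold change of -0.48. Over all 15717 tested genes, 22.7% were called higher and 18.1% lower with a median of 0.01, and over the 9441 tested genes with other symbols that met the same abundance threshold, 18.9% were called higher and 18.9% lower. Among the members the shares were 10.6% and 45.8%. Those 9441 genes were not matched in abundance or class, and 9363 of them were protein-coding, against 106 of the 216 members. Restricted to the 161 members with a mean of 200 or more over all 9 libraries, 15 were higher and 65 lower, with a median of -0.43. The 55 others gave 8 higher and 34 lower.

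The classes differed in their counts. Of the 77 non-coding members, 7 were called higher and 54 lower, with a median log2 fold change of -1.39. The 106 protein-coding members gave 13 higher and 30 lower with a median of -0.12, and the 29 pseudogenes gave 3 higher and 14 lower with a median of -0.33. Over all 1479 tested non-coding genes, 172 were higher and 450 lower (11.6% and 30.4%) with a median of -0.46, and over all 13667 tested protein-coding genes 3327 were higher and 2262 lower. The 46 non-coding members with the higher 9-library mean gave 2 higher and 31 lower. Over all 448 tested pseudogenes, 53 were higher and 110 lower. Genes with other symbols that met the same threshold gave 7 higher and 16 lower of 33 pseudogenes, and 8 higher and 10 lower of 32 non-coding genes. The share of pseudogene members called lower, 48.3%, was close to the 48.5% of those 33. No test compared the classes.

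**Figure D1:**
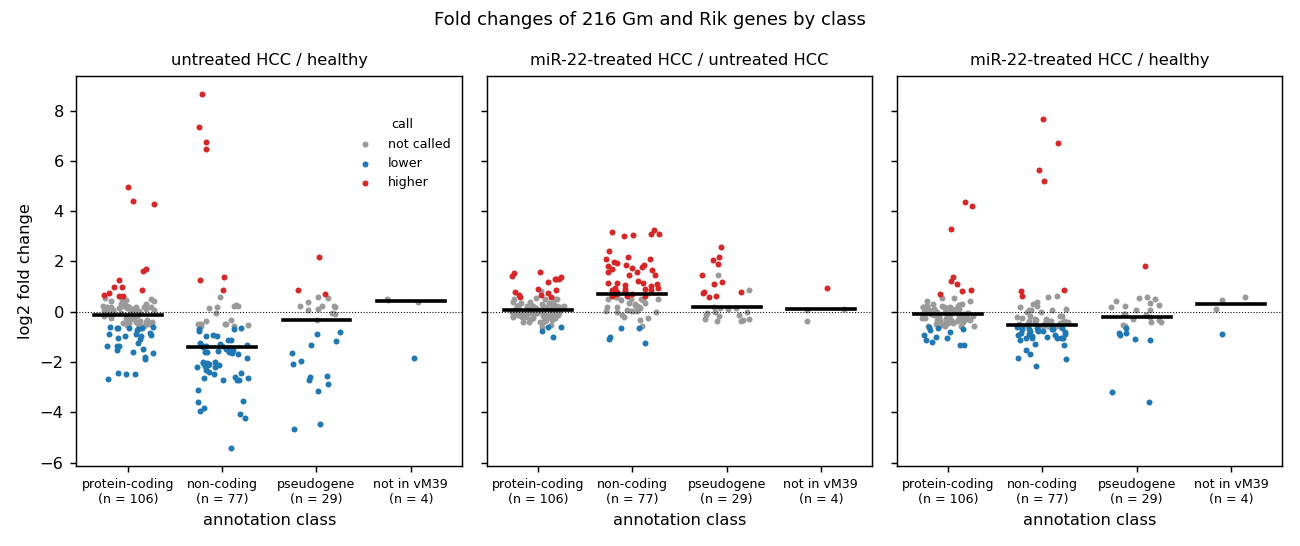
Log2 fold change (vertical axis) of each of the 216 genes in the 3 comparisons, by annotation class; points are genes, colored by call, and black bars are class medians. In untreated HCC against healthy the non-coding median is -1.39 and the protein-coding median -0.12, and with miR-22 the non-coding median is 0.71 against untreated HCC. Over the 46 non-coding members with a 9-library mean of 200 or more, the non-coding medians are -1.20 and 0.65. The comparisons share samples and are not independent.

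The largest rises were in 4 non-coding genes that were almost without reads in healthy liver. Of these, 1700049E15Rik, Gm47815 and Gm13387 are among the 55 members that entered only through a group in which they were high, as is Gm609 among the coding rises given after them. Their fold changes and adjusted p-values use the values that chose them and are descriptions. Among the 161 other members the highest log2 fold change was 6.73, that of Gm830. 1700049E15Rik, a lncRNA of 4 exons on chromosome 6 (147591739 to 147603943), had normalized counts of 0, 0 and 1.07 in the healthy livers, 222, 260 and 146 in untreated HCC and 114, 70.5 and 126 with miR-22. Gm47815, a lncRNA of 3 exons on chromosome 10 (42910989 to 42926215), had 0, 2.44 and 2.13, then 255, 303 and 256, then 160, 181 and 180. No healthy library held more than 2 counts of either, so each fold is a lower bound against a floor of 3 counts per library: 1700049E15Rik was at least 59.6-fold higher and Gm47815 at least 77.4-fold higher in untreated HCC. With miR-22 the same bounds were 29.5-fold and 49.4-fold over healthy liver.

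Gm830, a lncRNA of 5 exons on chromosome 4 (95336022 to 95375727), gave 7.32, 7.33 and 8.53 normalized counts in healthy liver against 679, 1207 and 620 in untreated HCC, a log2 fold change of 6.73 ± 0.408 (SE, edgeR adjusted p = 7.4e-08). Gm13387, a lncRNA of 4 exons on chromosome 2 (25011617 to 25071716) that overlaps the Notch target gene Nrarp on the opposite strand, gave 6.1, 1.22 and 1.07 against 245, 306 and 198 (6.45 ± 0.410, edgeR adjusted p = 1.0e-07), and 7.62 without healthy replicate 1. In both genes every HCC library lay above every healthy library.

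Protein-coding members made up most of the next rises. 5330417C22Rik, now Elapor1, which encodes a membrane protein of endosomes and lysosomes, had 19.5, 24.4 and 11.7 normalized counts in healthy liver and 545, 711 and 474 in untreated HCC (log2 fold change 4.97 ± 0.306, edgeR adjusted p = 8.3e-08). 2010003K11Rik had 86.6, 72.1 and 67.2 against 2069, 1177 and 1499 (4.39 ± 0.310, edgeR adjusted p = 2.2e-07). Gm609, now Cd200l1 and named for its likeness to the immune surface glycoprotein CD200, had 13.4, 12.2 and 16 against 266, 355 and 207 (4.29 ± 0.269, edgeR adjusted p = 9.2e-08). In all 3 the groups were separated by a wide gap. Smaller rises were seen for 2700081O15Rik, now Zfta, a zinc finger gene (1.71 ± 0.182, edgeR adjusted p = 6.0e-06), and 1700017B05Rik (1.64 ± 0.138, edgeR adjusted p = 9.0e-07). Gm6166, a processed pseudogene of Fabp5, the epidermal fatty acid binding protein, had 187, 68.5 and 70.4 against 572, 561 and 340 (2.18 ± 0.331, edgeR adjusted p = 1.1e-04), and 2.80 without healthy replicate 1.

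Most of the largest falls were among the 55 members with the lower 9-library mean. Gm44992, Gm45909, Gm43611, B430119L08Rik, Gm43314, Gm29920 and Gm47935 all belong to them and entered only through groups in which they were high, so their place in the order and their adjusted p-values use the values that chose them and are descriptions. Among the 161 other members the lowest log2 fold change was -3.57, that of Gm48837. Gm44992 had the lowest of all 216. This lncRNA of 4 exons on chromosome 7 (39437505 to 39627743) had 445, 500 and 439 normalized counts in the healthy livers and 7.27, 16.5 and 8.70 in untreated HCC, a log2 fold change of -5.41 ± 0.229 (edgeR adjusted p = 6.9e-09). Gm45909, a single-exon model on chromosome 8 (93916956 to 93917986) inside the carboxylesterase gene Ces1d and on its strand, had 207, 330 and 285 against 10.9, 15.6 and 16.7 (-4.23 ± 0.249, edgeR adjusted p = 6.0e-08). Gm43611, a single-exon model on chromosome 5 (28237053 to 28241404), had 171, 392 and 193 against 10.9, 13.0 and 19.6 (-4.08 ± 0.356, edgeR adjusted p = 1.2e-06). Over these 3 genes the lowest healthy value was 171, and the highest untreated HCC value was 19.6.

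B430119L08Rik, a lncRNA of 2 exons on chromosome 12 (103862156 to 103865043), is antisense to Serpina1c, which encodes an alpha-1-antitrypsin. It had 535, 359 and 450 normalized counts against 21.8, 30.4 and 33.3 (-3.96 ± 0.237, edgeR adjusted p = 6.7e-08). Gm43314, a single-exon model on chromosome 3 (157600598 to 157602828) within Cth, the gene of cystathionine gamma-lyase, had 244, 440 and 237 against 22.7, 15.6 and 26.1 (-3.82 ± 0.419, edgeR adjusted p = 7.4e-06). Gm48837, a lncRNA of 5 exons on chromosome 13 (112493459 to 112504379), had 543, 386 and 246 against 55.5, 20.8 and 23.9 (-3.57 ± 0.447, edgeR adjusted p = 2.2e-05). For these as well, the lowest healthy value was several times the highest untreated HCC value. Gm31583, a lncRNA of 4 exons on chromosome 16 (23903319 to 23909180), had 867, 680 and 521 against 22.7, 30.4 and 117 (-3.55 ± 0.505, edgeR adjusted p = 6.6e-05), and its fall was -4.69 without untreated HCC replicate 4.

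The remaining large falls were in 3 pseudogenes. Gm29920, a processed pseudogene on chromosome 7 (25798988 to 25799741) close to Cyp2b13, had 181, 309 and 286 normalized counts against 0.909, 9.56 and 18.8 (-4.64 ± 0.581, edgeR adjusted p = 2.2e-05). Gm47935, a processed pseudogene on chromosome 10 (33748630 to 33749014) within the sulfotransferase gene Sult3a1, had 282, 268 and 248 against 0, 10.4 and 23.9 (-4.45 ± 0.669, edgeR adjusted p = 1.0e-04). Without untreated HCC replicate 4, the highest of its group in both, the falls were -5.57 and -5.61. Gm8893, a Serpina1 pseudogene on chromosome 12 (103784115 to 103788502), was far more abundant, at 5169, 2787 and 4747 against 472, 367 and 596 (-3.14 ± 0.248, edgeR adjusted p = 5.3e-07).

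**Figure D2:**
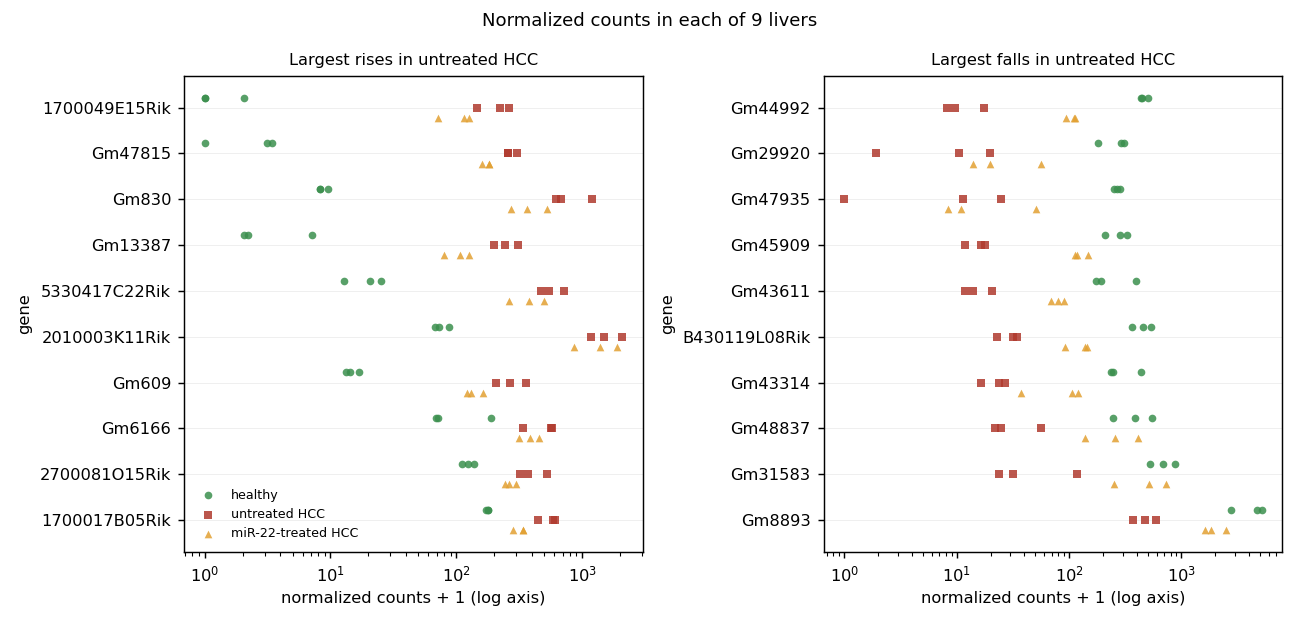
Normalized counts plus 1 on a log axis (horizontal) in each liver for the 10 genes with the largest rise (left) and the 10 with the largest fall (right) in untreated HCC against healthy; each symbol is 1 library, 3 per group. By the rule that chose these 20 genes the healthy and untreated HCC libraries do not overlap, and in Gm44992 the miR-22-treated livers (92.3 to 112) lie between both.

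The most abundant members were mostly liver-expressed coding genes, and by normalized counts their order was led by Gm23935, 1 of the members with no vM39 entry. It was listed here among ribosomal RNA-overlapping transcripts, and how much of its count came from ribosomal RNA was not tested. Gm23935 varied within groups as much as between them, with 13342, 7615 and 8083 normalized counts in healthy liver, 7213, 16997 and 13202 in untreated HCC and 13265, 9775 and 17452 with miR-22, and it was not called in any comparison. 1300017J02Rik (Inhca) had 16376, 16711 and 16475 in healthy liver and 5051, 4811 and 6549 in untreated HCC, a log2 fold change of -1.59 ± 0.140 (edgeR adjusted p = 1.3e-06). Gm4737, now Ahcyl and a near copy of Ahcy, the gene of S-adenosylhomocysteine hydrolase, had 12313, 14908 and 13181 against 2265, 2108 and 2966 (-2.46 ± 0.156, edgeR adjusted p = 1.0e-07). Neither gene overlapped between those groups.

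Among the other abundant members the changes were small or absent. 1600014C10Rik fell by 0.87 on the log2 scale (SE 0.145, edgeR adjusted p = 2.2e-04), Gm4788 by 0.85, C130074G19Rik by 0.74 and 4931406C07Rik by 0.64. 2610507B11Rik, now Bltp2, a large lipid transfer protein gene, was at -0.43 ± 0.101 and did not reach the fold threshold. 9530068E07Rik had 3347, 3170 and 3074 normalized counts in healthy liver and 3455, 3261 and 3305 in untreated HCC (0.06 ± 0.0829), and Gm15459, a processed pseudogene of the chaperone gene Hspa8, was at -0.09 ± 0.185. For these 3 genes no call was made.

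Several coding members have since been named for roles in metabolism or organelles, and those given here were chosen after their values were seen. Gm4756, now Dhrs7l, a short-chain dehydrogenase gene, had 2742, 2964 and 2568 normalized counts in healthy liver, 420, 454 and 598 in untreated HCC and 1651, 1565 and 781 with miR-22, with a fall of 2.49 ± 0.234 (SE, log2 scale, edgeR adjusted p = 2.1e-06). D230025D16Rik, now Phaf1, had 1250, 1096 and 1246, then 439, 434 and 519, then 1317, 1464 and 1352. Its treated livers all lay above every healthy liver, after a log2 fold change of -1.37 ± 0.0982 in untreated HCC (edgeR adjusted p = 2.5e-07) and of 1.57 ± 0.0983 with miR-22. Gm6614, now Slco1a8, of the organic anion transporter family, had 881, 1090 and 1147, then 656, 445 and 591, then 836, 859 and 866 (-0.88 ± 0.137 in untreated HCC, edgeR adjusted p = 1.3e-04).

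Smaller falls in untreated HCC were called for 2310039H08Rik, now Pex39, a peroxisome gene (-0.96), 2810006K23Rik, now Mtrfr, a mitochondrial translation release factor (-0.67), 1810058I24Rik, now Stmp1, which encodes a mitochondrial micropeptide (-0.66), and 2410131K14Rik, now Spring1, a regulator of the SREBP pathway of lipid synthesis (-0.59). None of these 4 was called with miR-22 by edgeR, where they were at 0.50, 0.34, 0.38 and 0.39. Norad (2900097C17Rik) had 2626, 2447 and 2610 normalized counts in healthy liver, 1937, 1970 and 2105 in untreated HCC and 2417, 2259 and 2191 with miR-22. All its untreated HCC values lay below all others, but the log2 fold change of -0.35 ± 0.0828 did not reach the fold threshold. Chaserr (1810026B05Rik) was at -0.33 ± 0.157 (edgeR adjusted p = 0.0954).

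Near-identical copies were then examined, since counts of a pseudogene and its parent can exchange reads. A near copy was a coding gene whose transcript matched at least 80% of the member's canonical transcript at 90% identity or more, and 28 members had 1. In 26 of these the copy was also tested. In untreated HCC against healthy, member and copy had fold changes of the same sign in 23 of 26 pairs and lay within 0.5 on the log2 scale in 21, with a median gap of 0.12. Gm4737 was 99.7% identical to Ahcy, and their log2 fold changes were -2.46 and -2.59. Gm13394, 99.9% identical to Gapdh, was at 0.70 against 0.74, Gm6166 (98.3% identical to Fabp5) at 2.18 against 2.00, and Gm15459 (99.7% identical to Hspa8) at -0.09 against -0.02. How many of the reads of such a pair came from either locus was not tested, and these values are uncertain for that reason.

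A few pairs went apart. Gm10319, now Mug7-ps and related to the murinoglobulins, a family of plasma proteinase inhibitors, had 506, 560 and 583 normalized counts in healthy liver and 69.1, 53.9 and 98.6 in untreated HCC (-2.88 ± 0.251, edgeR adjusted p = 1.2e-06), while Mug2, 97.0% identical, was at -0.22 ± 0.202 and not called. Gm35570, now Idi1-ps2, was at -2.60 against -1.23 for Idi1, an isopentenyl diphosphate isomerase of sterol synthesis. Gm12247 was at -1.62 against -0.44 for A430005L14Rik, itself a member. Gm14403, a zinc finger gene with 39 similar coding genes, was at -1.63 against 0.01 for Gm14399. The differences within pairs were not tested.

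**Figure D3:**
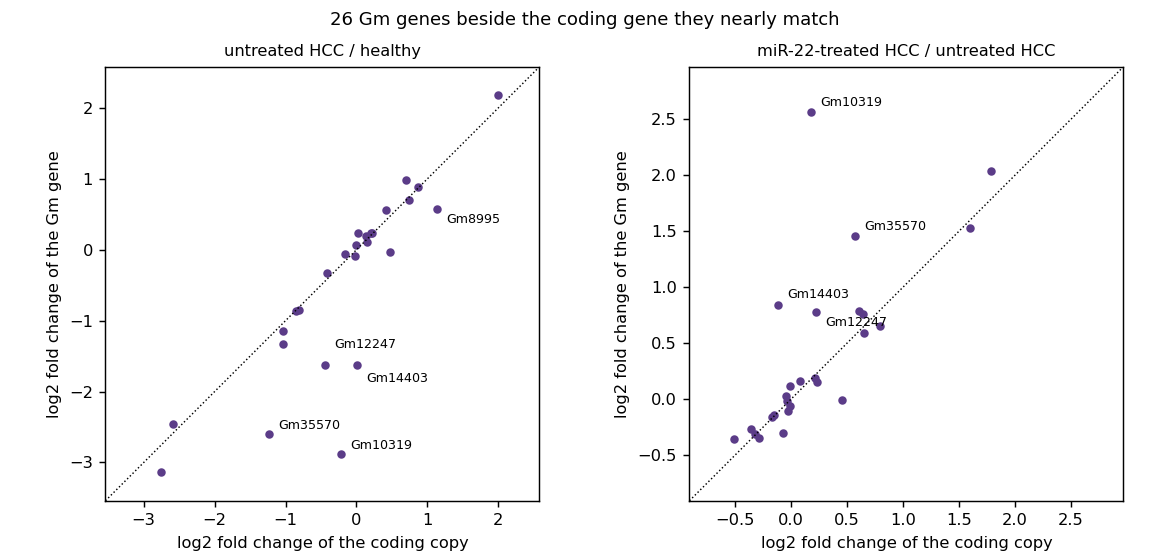
Log2 fold change of 26 Gm genes (vertical) against that of their near-identical coding copy (horizontal); each point is a pair and the dotted line marks equal change. In untreated HCC against healthy 21 of 26 pairs lie within 0.5 of the line, and the named genes are those further away.

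A group of 3 copies lies side by side on chromosome 1 (24651856 to 24655278) and matches the mitochondrial genome. Gm28438 aligned with mt-Nd3, a subunit of respiratory complex I, over 345 bases with 1 mismatch, shown in capitals within the first 33 bases, and Gm10925 was 100% identical to mt-Atp6, a subunit of the ATP synthase.
Gm28438: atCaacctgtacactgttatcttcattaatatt
mt-Nd3: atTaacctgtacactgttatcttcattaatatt
Gm28438 had 787, 507 and 450 normalized counts in healthy liver and 129, 122 and 157 in untreated HCC (-2.09 ± 0.206, edgeR adjusted p = 3.1e-06), whereas mt-Nd3 itself did not pass the filter on low counts. Gm10925 fell by 1.15 (SE 0.168, edgeR adjusted p = 8.1e-05) and mt-Atp6 by 1.04, and Gm29216, 99.8% identical to mt-Co1, fell by 1.33 beside 1.04 for mt-Co1. Of the 15 mitochondrially encoded genes listed, 12 were tested and 12 were called lower, with a median of -1.04. With miR-22 the 3 chromosome 1 copies rose over untreated HCC, by 1.17, 0.76 and 0.79 in the order given, and 3 of the 12 mitochondrial genes were called higher. In the edgeR test against a fold of 1.5, none of the 3 copies passed (adjusted p = 0.0539, 0.498 and 0.479 in the same order).

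Gm4951, Gm4788, Gm5834 and Gm4952 were called lower. Gm4951, now Iigp1c, an interferon-inducible GTPase of the immunity-related family, had 2693, 2887 and 2782 normalized counts in healthy liver and 1064, 903 and 1288 in untreated HCC (-1.36 ± 0.129, edgeR adjusted p = 2.3e-06). Over the 13 interferon-inducible GTPases listed, 3 were called higher and 2 lower, with a median of 0.29. Gm8995, now Gvin4, a pseudogene with Gvin1, a very large interferon-inducible GTPase gene, as a near copy, was at 0.58 ± 0.164 and not called, and Gvin1 was called higher at 1.14. Gm4788, now Cfhr4, a complement factor H-related gene, had 4421, 5477 and 5322 against 3096, 2320 and 3028 (-0.85 ± 0.144, edgeR adjusted p = 2.7e-04), and its pseudogene relative Gm5834 had 657, 785 and 847 against 441, 355 and 457 (-0.87 ± 0.143, edgeR adjusted p = 2.1e-04). Of 4 tested complement factor H family genes, Gm4788 among them, 3 were lower. Gm4952, which belongs to the glycine N-acyltransferase-like genes, had 1760, 1423 and 1561 against 403, 442 and 823 (-1.50 ± 0.225, edgeR adjusted p = 1.0e-04).

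The position of non-coding members relative to coding genes was described next. A tested coding gene overlapped or lay within 5 kb of 51 of the 77 non-coding members, 8 of which had neighbours of more than 1 kind. Of 31 members sharing exonic bases with the coding neighbour, 25 had a fold change of the same sign in untreated HCC against healthy. The counts were 12 of 13 for opposite-strand neighbours with no shared exonic base and 14 of 17 for same-strand neighbours with none. In miR-22-treated against untreated HCC the signs were shared in 27 of 31, 10 of 13 and 11 of 17. These genes are not independent, and no test was run. Where exonic bases are shared, reads of both genes could not be assigned by strand.

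Some neighbouring pairs at hepatocyte genes both had lower values in untreated HCC and others did not. Gm15690, B430119L08Rik, A930033H14Rik, Gm45909 and Gm43314 are among the 55 members with the lower 9-library mean. Gm12909, which had 399, 473 and 456 normalized counts in healthy liver and 84.6, 78.2 and 124 in untreated HCC, was at -2.20, while Mup3, a major urinary protein gene 865 bases away on the other strand, was at -0.09. Gm15690, a 2-exon lncRNA on chromosome 5 (120617904 to 120618968) antisense to Sds, the serine dehydratase gene, had 255, 200 and 225 normalized counts in healthy liver and 30.9, 46.9 and 45.7 in untreated HCC (-2.45 ± 0.345, edgeR adjusted p = 5.9e-05), and Sds was at -2.35. The pair shared 32.4% of the exonic bases of Gm15690. B430119L08Rik was at -3.96 beside -3.10 for Serpina1c, and Gm48837 at -3.57 beside -2.72 for Ankrd55. A930033H14Rik was at -2.72 beside -1.35 for Rhobtb1, a pair that shared 0.5%. The single-exon models Gm45909 and Gm43314 lay within Ces1d and Cth on the same strand without a shared exonic base, and the host genes were at -2.35 and -2.36, each a smaller fall than the -4.23 and -3.82 of the models.

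Further antisense members at genes of hepatocyte metabolism were taken as examples after their values were known, and Gm15883 and 4732463B04Rik entered only through healthy liver. 0610031O16Rik, antisense to the alcohol dehydrogenase gene Adh7, had 809, 1298 and 1196 normalized counts in healthy liver, 161, 185 and 250 in untreated HCC and 642, 719 and 604 with miR-22 (-2.46 ± 0.190 in untreated HCC, edgeR adjusted p = 4.5e-07), beside -2.53 for Adh7. Gm15883, antisense to the cytochrome P450 gene Cyp2f2, had 246, 336 and 339, then 28.2, 51.3 and 66.7, then 163, 199 and 174 (-2.64 ± 0.249, edgeR adjusted p = 2.1e-06), beside -1.41. 4732463B04Rik, antisense to the acyl-CoA thioesterase gene Acot4, had 379, 340 and 263, then 40.9, 58.2 and 57.3, then 87.7, 90.3 and 166 (-2.64 ± 0.260, edgeR adjusted p = 3.0e-06), beside -2.40 for Acot4 and -4.76 for Acot3, which it also overlaps. Acot1, which lies 21 bases from it on the other strand, was at -0.37 in untreated HCC and 0.47 with miR-22. These antisense members share 4.4% (Adh7), 15.9% (Cyp2f2), 18.5% (Acot4) and 5.2% (Acot3) of their exonic bases with the coding gene. In each of the 3 members the treated livers lay between the other groups without overlap.

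Rising pairs were fewer. Sobp, in which Gm47815 lies on the opposite strand without a shared exonic base, had 3.66, 1.22 and 0 normalized counts in healthy liver and 84.6, 151 and 94.2 in untreated HCC (6.03 ± 0.692, edgeR adjusted p = 1.1e-05). Nrarp rose by 5.08 beside Gm13387, and Cd200 by 2.81 beside Gm609, which lies 2537 bases away on the same strand. Other neighbours did not follow. Gm16573, a 4-exon lncRNA on chromosome 14 (56844110 to 56858084), had 195, 210 and 250 against 23.6, 25.2 and 26.8 (-3.11 ± 0.385, edgeR adjusted p = 2.0e-05), while Parp4, with which it shares 16.9% of its exonic bases, was at 0.12 and not called. 1300017J02Rik fell by 1.59, and Topbp1, a DNA damage checkpoint gene 75 bases away on the other strand, rose by 0.77. 1600014C10Rik fell by 0.87, and Ccne1, the cyclin E1 gene that overlaps it, rose by 2.76.

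**Figure D4:**
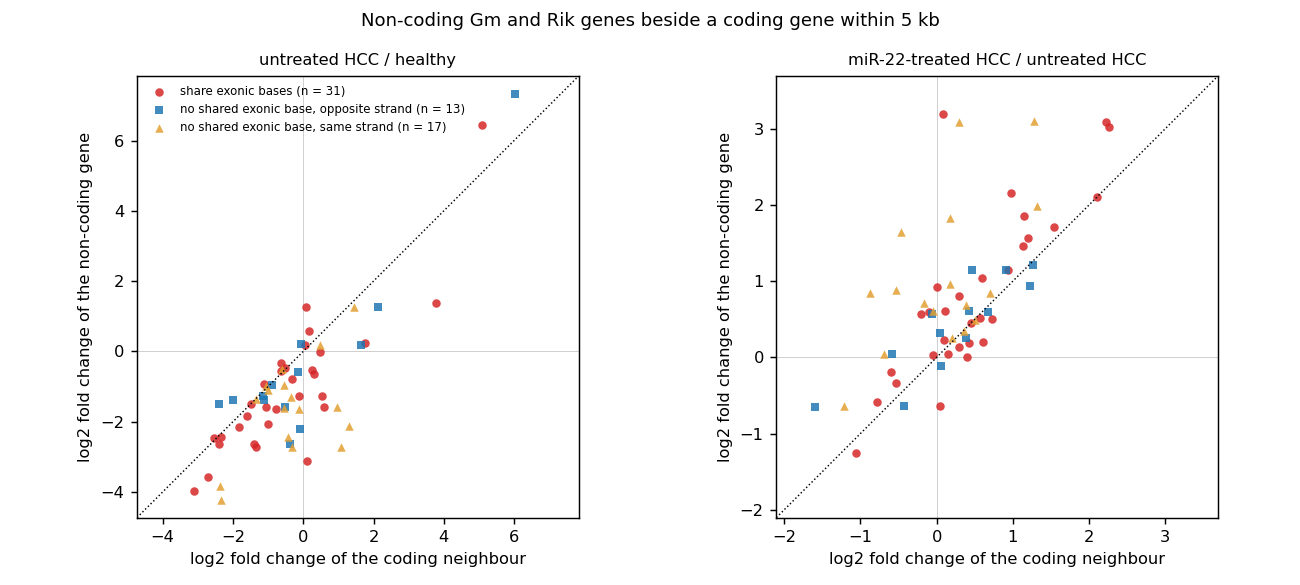
Log2 fold change of non-coding Gm and Rik genes (vertical) against that of the nearest coding gene that overlaps or lies within 5 kb (horizontal), by kind of neighbour; the dotted line marks equal change. In untreated HCC against healthy the sign is shared in 25 of 31, 12 of 13 and 14 of 17 pairs, and the points of Gm47815 and Gm13387 stand alone at the upper right.

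To ask what miR-22 did to the same transcripts, miR-22-treated HCC was compared with untreated HCC. The untreated libraries are shared with the comparison above, so a low value there both lowers the first fold change and raises the second, and the values are given side by side without a measure of their relation. Of 216 members, 72 were called higher and 9 lower (33.3% and 4.17%), with a median log2 fold change of 0.20. Over all tested genes 8.32% were called higher and 5.47% lower, and over the genes with other symbols above the same threshold 9.23% and 6.41%. The 161 members with the higher 9-library mean gave 48 higher and 4 lower. Leaving out 1 library moved the count of 9 to 4 without miR-22-treated replicate 3, and to 5 without miR-22-treated replicate 2, untreated HCC replicate 2 or untreated HCC replicate 3.

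Non-coding members again held the most calls. Of 77, 43 were higher and 5 lower, with a median of 0.71, against 16 and 4 of 106 protein-coding members (median 0.06). These counts include members that entered only through groups in which they were high. The 46 non-coding members with the higher 9-library mean gave 25 higher and 1 lower, with a median of 0.65. All 1479 tested non-coding genes gave 205 higher and 28 lower, all 13667 protein-coding genes 1033 and 825, and all 448 pseudogenes 58 and 5. Of 33 pseudogenes with other symbols above the same threshold, 10 were higher and 2 lower. Of the 29 pseudogenes, 12 were higher and 0 lower by edgeR, with 2 lower at an unadjusted p under 0.05 and 0 called lower by DESeq2.

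Gm44992, Gm45909, Gm43611 and Gm16573 are among the 55 members with the lower 9-library mean, and their values are descriptions. Gm44992 had the highest log2 fold change, from 7.27, 16.5 and 8.70 normalized counts to 112, 110 and 92.3 (log2 fold change 3.26 ± 0.241, edgeR adjusted p = 1.4e-05). The treated values were all above the untreated and all below the healthy values. Gm45909 reached 112, 147 and 117 (3.10 ± 0.253, edgeR adjusted p = 2.0e-05), and Gm43611 reached 88.8, 79.2 and 68.3 (2.41 ± 0.367, edgeR adjusted p = 9.2e-04). These also remained under every healthy value. Gm16573 reached 125, 402 and 171 (3.19 ± 0.384, edgeR adjusted p = 2.5e-04), or a log2 fold change of 2.55 without miR-22-treated replicate 3.

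Gm15690 and A930033H14Rik are also among these 55, so their p-values are descriptions. Gm15690 went from 30.9, 46.9 and 45.7 to 452, 444 and 163 normalized counts (3.08 ± 0.343, edgeR adjusted p = 1.7e-04), and Sds beside it rose by 2.22. Gm31583 reached 517, 730 and 249 (3.07 ± 0.503, edgeR adjusted p = 0.00130), or 4.21 without untreated HCC replicate 4. Gm48837 reached 254, 139 and 406 (3.02 ± 0.447, edgeR adjusted p = 8.0e-04). Against the healthy livers, 2 treated values of Gm15690 were above and 1 below all healthy values, Gm31583 had 1 treated value within the healthy range and 2 below it, and Gm48837 had 2 within it and 1 below. A930033H14Rik rose from 38.2, 59.9 and 38.4 to 208, 204 and 197 (2.16 ± 0.178, edgeR adjusted p = 2.0e-05). The pseudogenes Gm10319 and Gm7652, a relative of the glucuronosyltransferase gene Ugt2a1, rose by 2.57 ± 0.251 (edgeR adjusted p = 7.5e-05) and 2.16 ± 0.480 (edgeR adjusted p = 0.00698), the latter 3.07 without untreated HCC replicate 4.

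The coding genes and pseudogenes given next rose by less. Gm4737 went from 2265, 2108 and 2966 to 6498, 8283 and 6391 normalized counts (1.53 ± 0.152, edgeR adjusted p = 8.0e-05), beside 1.60 for Ahcy. 1300017J02Rik reached 10495, 11345 and 8689 (0.90 ± 0.138, edgeR adjusted p = 9.6e-04). Gm8893 reached 1627, 2468 and 1837 (2.04 ± 0.240, edgeR adjusted p = 2.2e-04), and Gm4951 reached 2542, 2670 and 2102 (1.17 ± 0.129, edgeR adjusted p = 1.7e-04). 1600014C10Rik, Gm4788 and Gm5834 rose by 0.67, 0.65 and 0.59, close to the fold threshold, and the calls were lost without untreated HCC replicate 2 for the first (0.58), without untreated HCC replicate 3 (0.52) or miR-22-treated replicate 3 (0.54) for the second, and without any healthy replicate, untreated HCC replicate 3 or miR-22-treated replicates 2 or 3 for the third (0.48 to 0.58). The call of Gm5834 was also lost with the DESeq2 test or size factors (0.56 in both), upper-quartile factors (0.55), no filter on low counts (0.58), a minimum of 10 counts in every library (0.57) and a fit of only the 2 groups compared (0.58). In the edgeR test against a fold of 1.5, none of the 3 passed, and neither did 1300017J02Rik (adjusted p = 0.114 in that test). Gm4952 was at 0.52 (edgeR adjusted p = 0.119) and reached 0.92 without untreated HCC replicate 4 (edgeR adjusted p = 0.00123), and C130074G19Rik went from 0.52 to 0.67 without the same library and was then called.

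The 9 members called lower with miR-22 were 5 non-coding and 4 protein-coding genes. Gm13387 went from 245, 306 and 198 to 107, 79.2 and 126 normalized counts (-1.25 ± 0.248, edgeR adjusted p = 0.00376). Gm830 went from 679, 1207 and 620 to 366, 273 and 527 (-1.09 ± 0.253, edgeR adjusted p = 0.00833), and Gm609 from 266, 355 and 207 to 163, 131 and 121 (1.99-fold lower, SE 0.204 on the log2 scale, edgeR adjusted p = 0.00448). 1700017B05Rik went from 591, 609 and 447 to 340, 282 and 337 (-0.78 ± 0.132, edgeR adjusted p = 0.00158). In these 4 genes the groups did not overlap, and the calls held whichever library was left out, while all treated values stayed above all healthy values.

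The other 5 depended on single libraries. Of all 9, Gm13387, Gm609, 1700049E15Rik, Gm47815 and 1110038B12Rik are among the 55 that entered only through groups in which they were high. 1700049E15Rik was 2-fold lower (edgeR adjusted p = 0.0165), and lost its call without untreated HCC replicate 2 (0.0637), untreated HCC replicate 3 (0.0904) or miR-22-treated replicate 3 (0.0709), values that are edgeR adjusted p. Gm47815 was at -0.65 (0.0182) and lost its call without untreated HCC replicates 2 or 3 or miR-22-treated replicates 2 or 3, with adjusted p of 0.0515 to 0.0963. 2700081O15Rik was at -0.60 (0.0239) and fell short without untreated HCC replicate 3 (-0.37, 0.117) or miR-22-treated replicates 2 or 3 (0.0640 and 0.0930). 6430548M08Rik was at -0.61 (0.0215), with adjusted p of 0.0610 to 0.0961 without untreated HCC replicates 2 or 4 or miR-22-treated replicates 2 or 3. 1110038B12Rik, a lncRNA with 280, 222 and 209 normalized counts in untreated HCC and 143, 162 and 152 with miR-22, was at -0.64 (0.0372), with 0.0649 to 0.160 without untreated HCC replicates 2 or 3 or any miR-22-treated replicate.

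Some of the members most changed in untreated HCC did not pass the test with miR-22. 2010003K11Rik had 854, 1392 and 1909 normalized counts (log2 fold change -0.19, edgeR adjusted p = 0.623), and Gm6166 was at -0.35 (edgeR adjusted p = 0.432). 5330417C22Rik was at -0.60 (edgeR adjusted p = 0.0627), and was called by DESeq2 (-0.63, 0.0337), with no filter on low counts, without untreated HCC replicate 4 (-0.72, 0.0421) or without miR-22-treated replicate 4 (-0.85, 0.0111). Gm29920 had 55.5, 18.6 and 12.9 against 0.909, 9.56 and 18.8 (1.47, edgeR adjusted p = 0.126), called with no filter on low counts, 2.40 and called without untreated HCC replicate 4, and 0.58 without miR-22-treated replicate 2. Gm47935 had 49.9, 9.90 and 7.38 against 0, 10.4 and 23.9 (0.87, edgeR adjusted p = 0.466), and its sign changed to -0.51 without miR-22-treated replicate 2. The highest treated value of both pseudogenes was in replicate 2, the library with the pancreatic acinar markers. Any link between these values and those markers was not tested.

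Finally, miR-22-treated HCC was compared with healthy livers to see which members still differed. Of 216, 17 were called higher and 53 lower (7.87% and 24.5%), with a median log2 fold change of -0.21. Over all tested genes 16.9% were higher and 7.05% lower, and over the genes with other symbols above the same threshold 13.6% and 7.59%. The 161 members with the higher 9-library mean gave 10 higher and 29 lower. Non-coding members gave 7 higher and 32 lower of 77, protein-coding 9 and 12 of 106, and pseudogenes 1 and 8 of 29. Over all tested genes, 9.06% of non-coding were higher and 11.1% lower, 18.2% and 6.58% of protein-coding, and 7.37% and 9.15% of pseudogenes. With the higher 9-library mean, 2 and 16 of 46 non-coding, 7 and 8 of 89 protein-coding and 1 and 5 of 23 pseudogene members were called. Pseudogenes with other symbols above the same threshold gave 3 and 8 of 33.

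No comparison called 92 members (42.6%), 62 of them protein-coding, beside 49.1% of the 161 members with the higher 9-library mean and 56.8% of all tested genes. A missing call against healthy does not show that a member had returned to the healthy level.

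Members still furthest below healthy with miR-22 were Gm47935 (log2 fold change -3.58 ± 0.640, edgeR adjusted p = 9.5e-04), Gm29920 (-3.17 ± 0.526, edgeR adjusted p = 5.8e-04), Gm44992 (-2.14 ± 0.178, edgeR adjusted p = 2.6e-06), B430119L08Rik (-1.86 ± 0.207, edgeR adjusted p = 2.6e-05) and Gm43314 (-1.83 ± 0.369, edgeR adjusted p = 0.00212), all of them among the 55 members with the lower 9-library mean and so given as descriptions. The first pair went to -4.96 and -4.07 without miR-22-treated replicate 2. The members furthest above healthy were the same 4 lncRNAs that led the rise in untreated HCC, with Gm830 at 5.63 ± 0.420 and Gm13387 at 5.20 ± 0.437 (6.36 without healthy replicate 1), and 5330417C22Rik at 4.37 ± 0.309. Gm10319, with 512, 536 and 283 normalized counts beside 506, 560 and 583 in healthy liver, was at -0.32 ± 0.223 and not called, and Gm16573 was at 0.08 ± 0.325, or -0.56 without miR-22-treated replicate 3. Gm15690 was at 0.63 (edgeR adjusted p = 0.121) and was called at 0.98 without miR-22-treated replicate 4 and at 0.64 with no filter on low counts. Gm15459 was at -0.40 (edgeR adjusted p = 0.109), and -0.66 and called without the same library.

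The start windows were compared for a feature that the abundance rule did not use. The CpG observed over expected ratio, which is high in the CpG island promoters common to broadly expressed genes, was at least 0.6 in 46.7% of the 212 members with a window and in 55.9% of all 15634 tested genes with one. Among members the share was 67% for protein-coding, 24.7% for non-coding and 31% for pseudogenes, and for the last a start window is often not a promoter. Members lower in untreated HCC had a median ratio of 0.295, with 22.4% of 98 at 0.6 or more. Members with no call had a median of 0.745 and 74.7% of 91 at 0.6 or more, and those called higher 0.492 and 39.1% of 23. Over all tested genes with a window, 42.7% of those lower, 62.7% of those not called and 48.7% of those higher were at 0.6 or more. Among the 161 members with the higher 9-library mean, the shares were 26.2% of 65 lower, 74.4% of 78 not called and 46.7% of 15 higher. Within the non-coding members, 9 of 54 lower and 9 of 16 not called were at 0.6 or more, beside 25.1% of 450 and 31.7% of 857 over all tested non-coding genes. Of the 7 called higher, Gm13387 was at 0.962 and the others at 0.0839 to 0.357, beside 26.2% of 172 at 0.6 or more over all tested non-coding genes. With the higher 9-library mean, 6 of 31 lower, 7 of 13 not called and 0 of 2 higher non-coding members were at 0.6 or more. Class and call go together, their separate parts were not tested, and no test of the difference was run.

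**Figure D5:**
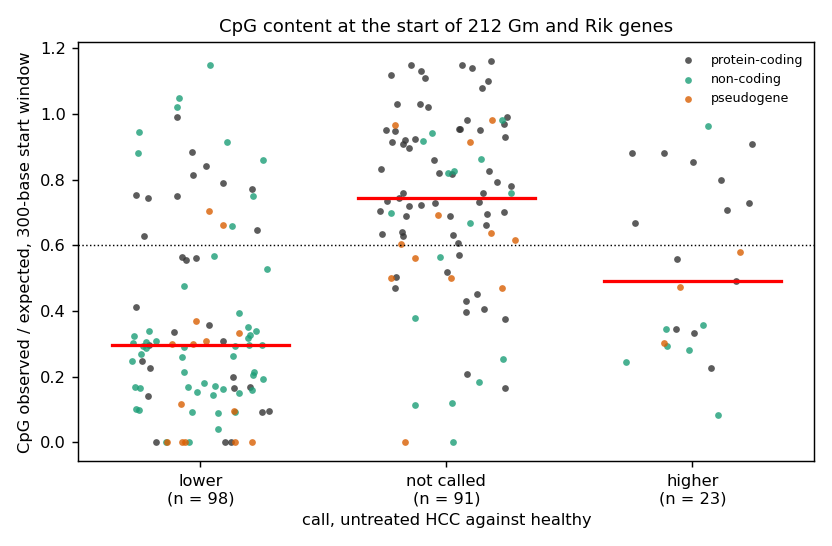
CpG observed over expected ratio in the 300-base start window (vertical) by call in untreated HCC against healthy; points are genes colored by class, red bars are medians and the dotted line marks 0.6. The medians are 0.295 for lower, 0.745 for not called and 0.492 for higher.

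The shown windows are examples of low CpG content, with ratios of 0.357 for 1700049E15Rik, 0.244 for Gm47815, 0.0919 for Gm44992 and 0 for Gm45909. Motifs were searched by exact letters. TATAAA on the sense strand was found in 7.55% of member windows and 5.78% of all tested windows, the GC box GGGCGG on either strand in 34.4% and 51.9%, and CCAAT on either strand in 34% and 38.6%. CCGGAAG, read by ETS factors, was in 12.7% and 13.4%, and TGANTCA, read by AP-1, in 6.6% and 5.81%. CAAAGTCCA, an HNF4 motif, was in 0.472% of member windows and 0.537% of all tested windows, and TTGCGCAA, a C/EBP motif, was in no member window and in 0.256% of all tested windows. These are matches of letters within the window only.

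The miR-22 site GGCAGCT, the complement of the seed printed above, was looked for anywhere in the canonical transcripts. It was present in 49 of 212 members (23.1%) and in 38.3% of all 15634 tested genes with a transcript, and members were shorter, with a median of 2149 bases against 3127. With miR-22, the median log2 fold change was 0.16 in the 49 members with a site and 0.21 in the others, and -0.04 and 0.03 over all tested genes. Of the 9 members called lower with miR-22, 2 held a site, 1 of them 6430548M08Rik with 3 sites. Of the members called higher that had a transcript, 13 held a site and 58 did not. Over all tested genes with a transcript, 408 of those called lower held a site and 450 did not, and 409 of those called higher held a site and 890 did not. D130043K22Rik held 5 sites, the most of any member, and was called higher. Site number, length and class differ together, and their separate parts were not tested.

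At the threshold itself the members shade into the genes left out. The last 3 inside, by highest raw group mean, were Gm46430 (200), Gm46620 (202) and 3110040N11Rik (204), and the first 3 outside were the other C730027H18Rik identifier (197), 2610005L07Rik (196) and 1810059H22Rik (196). Values on either side of 200 are close, so the number of members depends on sequencing depth as well as on expression.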

How the data were processed

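Whole liver RNA from 9 mice was sequenced as 150-base pairs from non-directional libraries. Salmon (build GRCm39) and tximport gave the gene-level estimates that the authors deposited as whole-number counts without normalization. A second deposited table of normalized values was not used. The submitters' processing notes also name FastQC 0.11.7 and DESeq2 1.18. Counts were tested here in R 4.3.3 with edgeR 4.0.16 (TMM, filterByExpr, quasi-likelihood test, 3 groups in 1 fit, two-sided, Benjamini-Hochberg over 15717 genes); calls needed an adjusted p under 0.05 and a fold over 1.5. Normalized counts are counts divided by the TMM-scaled library size and multiplied by the mean of these sizes. The fit was tested on simulated data. Nothing in the labels says more of the replicates than that they are separate samples, so p-values measure the spread between these livers. DESeq2 1.42.0, other factors, filters and thresholds, a replicate block and leaving out each library were alternatives. Classes and positions come from GENCODE vM39 on GRCm39, a later release than the authors' annotation, and near copies from BLAST 2.17.0.

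Genes were named by rule: called members with groups that do not overlap and the 10 largest rises and falls in each of the first pair of comparisons (5 for treated against healthy), the 10 most abundant, members in the gene lists or copies of listed genes, those nearest the threshold, and neighbours of these; other genes named as examples were chosen after their values were seen. The members and lists were chosen with earlier results of these data known.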

Additional observations from a re-analysis of the deposited data

How the results depend on the processing

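No called member was called in the opposite direction under any alternative tool, factor, filter or left-out library. Counts are given in the order higher and lower for untreated HCC against healthy, then for miR-22-treated against untreated HCC, then for miR-22-treated HCC against healthy. A threshold of 100 gave 52 and 175, 124 and 15, 44 and 87, and a threshold of 500 gave 10 and 30, 25 and 2, 6 and 12. A mean of 200 over all 9 libraries gave 15 and 65, 48 and 4, 10 and 29. A test against a fold of 1.5 (edgeR glmTreat) gave 16 and 88, 32 and 0, 11 and 18; beside that 0, glmTreat had 5 members lower at an unadjusted p under 0.05, and DESeq2 called 11. Without a fold threshold the counts were 33 and 126, 79 and 14, 26 and 75. At least 10 counts in every library lowered the 9 falls with miR-22 to 5. Leaving out 1 library each gave 22 to 25 and 93 to 102, 62 to 80 and 4 to 11, 16 to 19 and 46 to 54. Leaving out members with a near copy gave 19 and 87, 61 and 9, 15 and 47, and leaving out the 15 that share most of their exonic bases gave 22 and 92, 66 and 9, 17 and 48; both were chosen after seeing the data.

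Livers with the same replicate number did not deviate together: the correlations of same-numbered untreated and treated HCC livers were -0.116, -0.116 and -0.227, against -0.019 to 0.128 for different numbers. The numbers were therefore not taken as pairs, and a fit with the replicate block gave 21 and 97, 67 and 6, 16 and 45. Among named members the block ended the calls of 1110038B12Rik, 1700049E15Rik, 2700081O15Rik and Gm5834 in 5 comparisons. Depth limits the lowest groups, where 3 counts equal 2.17 to 3.71 normalized counts.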
